A study of Mus musculus with 6 samples.

Results

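Cadherins are calcium-dependent adhesion proteins of the cell surface. Classical cadherins bind their like on neighbouring cells and hold the actin cytoskeleton through catenins, and N-cadherin is the classical cadherin usually found in mesenchymal cells. Protocadherins are a larger branch of the family, best known from the nervous system, and those of the *Pcdha*, *Pcdhb* and *Pcdhg* clusters give single neurons a surface identity. The genes described here are all those in the processed table of *Ms4a15* OE and control cells whose symbol is *Cdh* followed by a number or begins with *Pcdh*. The rule uses the symbol alone and no measured value. There were 70 such genes among 19078 listed, namely 14 classical cadherins, 44 clustered protocadherins and 12 others.

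Poly(A)-selected RNA was sequenced from 6 libraries of immortalized mouse fibroblasts (MF), 3 of *Ms4a15* OE and 3 of control cells. The line derives from embryonic fibroblasts with a conditional *Gpx4* deletion and Cre-ERt2. In the *Ms4a15* OE pool, a lentiviral guide directs a CRISPR activation system to *Ms4a15*. According to the study's methods, the control cells carry an empty lentivirus, and the labels give their genotype as wild type. The study's methods describe selection of such pools with geneticin for 1 week. No other treatment of the sequenced cells is given in the sources used here, and each group is a selected pool of 1 line. The activation guide was found just before *Ms4a15* in the RefSeq sequence of GRCm38.p6. Its site, counted with the adjoining GGG (the PAM), lies at chr19:10993358-10993380 on the reverse strand. The site ends 107 bases before the start of transcription. It is shown because it defines the *Ms4a15* OE group, with the PAM in capitals.

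Ms4a15 site: aaagactgaagcaagggactGGG

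The only values used here are the authors' means over all 6 libraries of normalized counts, that is, of reads per gene divided by the size factor of the library. These means mix *Ms4a15* OE with control, so no difference between the groups is reported, and a given mean may come from either group alone. *Ms4a15* itself had a mean of 638, which does not check the labels for the same reason. Size factors, fitted to the lowest means of the table, lay between 0.887 and 1.14, and the totals of single libraries are not known. Intervals given below cover counting error alone, since a pooled mean does not give the spread between replicates. Where reads of single libraries could be recovered, the intervals still leave out the spread between libraries.

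Most cadherin genes were weakly expressed in these fibroblasts. Of the 70 members, 26 (37.1%) reached 10 normalized counts on average and 10 (14.3%) reached 100. Over all listed genes these shares were 67.7% and 54.7%. The median member stood at 5.84 and the median listed gene at 237. Together the members took 0.0445% of all normalized counts. Of the members' sum, 88.9% came from 4 genes, *Cdh2*, *Pcdhgc3*, *Pcdh18* and *Pcdh19*. By class, classical cadherins held 38.7% of that sum, clustered protocadherins 29.5% and the others 31.8%. Each class owed its share to 1 or a few genes. Without *Cdh2*, the classical cadherins fell to 4.39%. The members just above and just below the minimum of 10 were *Pcdhgb7* at 10.4 and *Pcdh7* at 9.80.

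**Figure D1:**
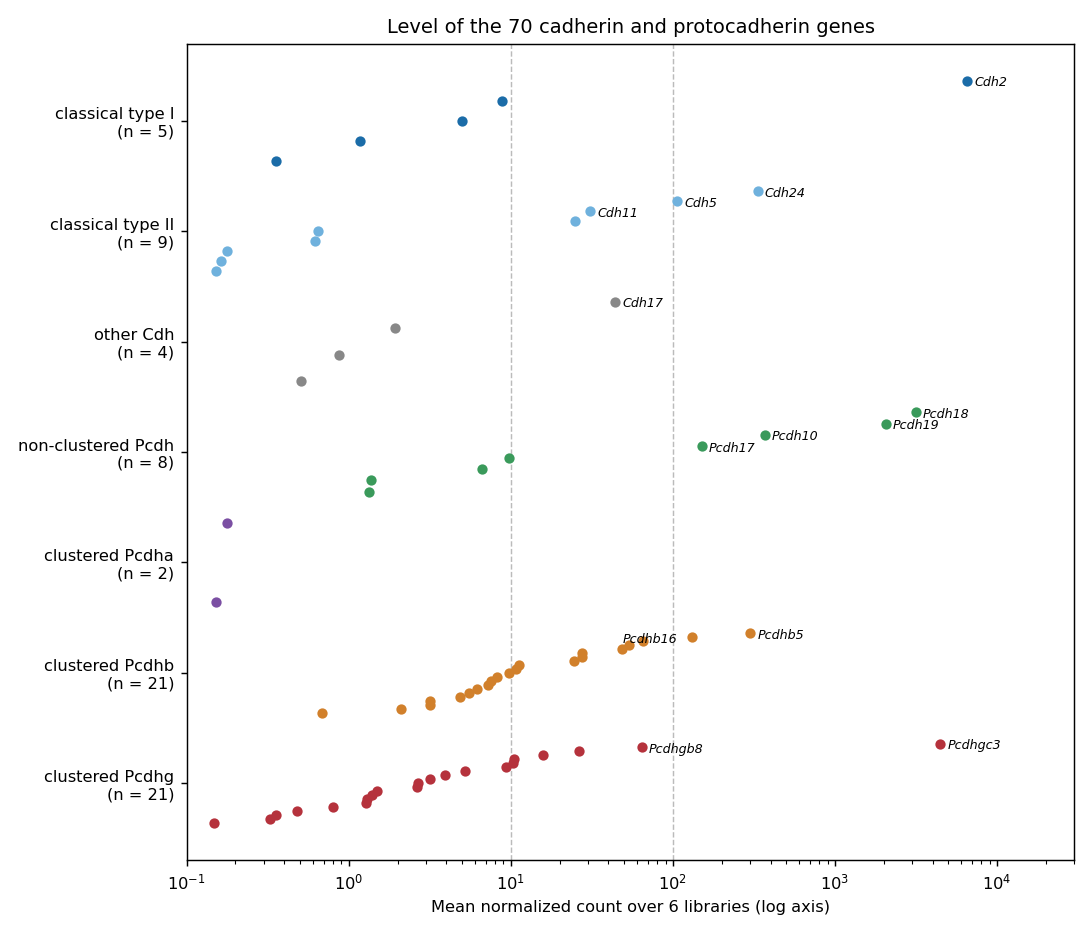
Mean normalized count over 6 libraries (log axis) of each of the 70 members, 1 point per gene, in rows by class, with dashed lines at 10 and 100. The type I cadherins run from 0.355 to 6548 and the *Pcdhg* genes from 0.147 to 4456, and 4 genes, *Cdh2*, *Pcdhgc3*, *Pcdh18* and *Pcdh19*, stand apart between 2057 and 6548.

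*Cdh2*, which encodes N-cadherin, had the highest mean of all members, 6548 normalized counts, with a counting interval from 6483 to 6613. It lies on chromosome 18 of GRCm38 from 16588877 to 16809246, on the reverse strand, and was above 92.7% of the listed genes. The other type I cadherins had means below 10. *Cdh3* (P-cadherin) had a mean of 8.85, *Cdh15* (M-cadherin, known from muscle) 5.01, *Cdh1* (E-cadherin, the classical cadherin of epithelia) 1.17 and *Cdh4* (R-cadherin) 0.355. The mean of *Cdh2* was thus far above the sum of the other type I genes.

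Means this low can be taken apart into whole reads. A pooled mean is a sum of reads, each worth a fixed amount that depends on its library, and the 6 amounts are visible in genes with 1 read. For 43 of the 44 members with a mean below 10, and for 99.6% of all 6164 listed genes below 10, exactly 1 set of whole reads gave the mean. For higher means several sets can fit, so no values by library are given for them. The libraries are named A to F by falling size factor. The labels do not say which of them are *Ms4a15* OE and which control, so none was assigned to a group and no test was made between them. *Cdh3* had 10, 11, 1, 20, 3 and 8 reads in libraries A to F, a total of 53. *Cdh15* had 7, 4, 2, 9, 3 and 5 reads. *Cdh1* had 1, 1, 2, 0, 2 and 1 reads, a total of 7 with a 95% exact Poisson interval from 2.81 to 14.4. *Cdh1* was therefore detected in 5 of 6 libraries, with no more than 2 reads in any, whereas *Cdh3* was lowest in C and highest in D. *Cdh4* had 2 reads, both in E.

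Type II cadherins were led by *Cdh24*, with a mean of 333 (interval 319 to 348) and a position on chromosome 14 from 54631231 to 54641364. *Cdh5*, which encodes the VE-cadherin of endothelial junctions, followed at 107 (98.5 to 115) on chromosome 8 from 104101625 to 104144511. *Cdh11* (OB-cadherin, usually abundant in fibroblasts and osteoblasts) had 30.9, with an interval from 26.7 to 35.7, and *Cdh10* had 24.7, from 20.9 to 29.1. The intervals of *Cdh11* and *Cdh10* overlapped. The remaining 5 type II members rested on 11 reads in all. *Cdh18* had 4 reads, with 1 in A, 1 in B and 2 in D, and *Cdh19* also had 4, with 2 in A, 1 in B and 1 in D. *Cdh20*, *Cdh22* and *Cdh12* had 1 read each, in E, C and B. Of the 18 classical cadherins annotated in GENCODE M21, 14 were listed, and *Cdh6*, *Cdh7*, *Cdh8* and *Cdh9* were not analysed here.

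Among the *Cdh* genes outside the classical types, *Cdh17* (LI-cadherin, known from intestine and liver) had a mean of 43.8 with an interval from 38.7 to 49.4. The other 3 were close to 0. *Cdh23*, which encodes a tip-link protein of hair cells, had 0, 0, 3, 0, 5 and 3 reads in libraries A to F. *Cdh16*, a cadherin of kidney, had 3 reads, 2 in C and 1 in E. *Cdh29* had 0, 0, 2, 1, 1 and 1 reads. RefSeq gives this symbol as a synonym of *Cdhr4*, but the table lists *Cdhr4* as a separate gene with a mean of 0.499, beside 0.868 for *Cdh29*. Libraries C and E held reads of each of these 3 genes, and A and B held none. *Cdh13* and *Cdh26* were not analysed here.

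Of the 8 non-clustered protocadherins, 4 had a mean of at least 100 (50%), the largest share among the classes and close to the 54.7% of all listed genes. All 4 belong to the delta subfamily that also holds *Pcdh8*, whose members act in cell sorting and cell movement. *Pcdh18* had a mean of 3148 (3103 to 3193) and lies on chromosome 3 from 49743296 to 49757325. *Pcdh19*, an X-linked gene known for a form of epilepsy and for acting together with N-cadherin, had 2057 (2021 to 2093). *Pcdh10* had 369 (354 to 384) and *Pcdh17* 151 (141 to 161). *Pcdh18* was above 83.5% of the listed genes, *Pcdh19* above 76.3%, *Pcdh10* above 53.3% and *Pcdh17* above 47.3%. The intervals of these 4 did not overlap.

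The members of the other delta subfamily, *Pcdh1*, *Pcdh7* and *Pcdh9*, were lower. *Pcdh7* had 0, 0, 23, 1, 14 and 18 reads in libraries A to F, a total of 56 (42.3 to 72.7). Its interval leaves out the wide spread between these libraries. *Pcdh1* had 9, 8, 4, 6, 3 and 10 reads, and *Pcdh9* had 0, 0, 5, 0, 1 and 2. Of the 56 reads of *Pcdh7*, 1 came from A, B and D together, while *Pcdh1* was read in every library. *Pcdh12*, known as VE-cadherin-2 of endothelium, had 2, 0, 2, 2, 1 and 1 reads. *Pcdh8*, *Pcdh11x*, *Pcdh15* and *Pcdh20* were not analysed here.

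Promoter sequences were at hand in RefSeq (GRCm38.p6) for 14 members, 6 of them non-clustered protocadherins. Of these 14, the 100 bases before the start of transcription are shown for the 5 with a mean of at least 100. For contrast they are shown for *Pcdh9*, *Cdh23* and *Cdh22*, which had 8 reads, 11 reads and 1 read. The other members with a mean of at least 100, *Cdh2*, *Pcdhgc3*, *Pcdhb5*, *Pcdhb16* and *Cdh5*, had no promoter at hand and were not examined. Capitals mark CCAAT on either strand (ATTGG where it lies on the other strand), a motif looked for after the sequences had been seen.

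Pcdh18: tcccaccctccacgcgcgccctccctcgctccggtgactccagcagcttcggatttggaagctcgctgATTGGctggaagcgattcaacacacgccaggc
Pcdh19: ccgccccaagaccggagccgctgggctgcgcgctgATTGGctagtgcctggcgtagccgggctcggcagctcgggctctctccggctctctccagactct
Pcdh10: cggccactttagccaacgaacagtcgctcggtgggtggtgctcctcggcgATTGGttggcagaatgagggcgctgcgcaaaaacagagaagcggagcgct
Cdh24: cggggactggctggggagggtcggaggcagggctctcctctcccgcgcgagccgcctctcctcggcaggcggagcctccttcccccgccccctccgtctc
Pcdh17: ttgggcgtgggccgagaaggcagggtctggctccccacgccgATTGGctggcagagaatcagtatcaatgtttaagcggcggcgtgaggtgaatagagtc
Pcdh9: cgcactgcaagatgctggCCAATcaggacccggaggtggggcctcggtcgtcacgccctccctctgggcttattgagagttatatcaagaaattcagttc
Cdh23: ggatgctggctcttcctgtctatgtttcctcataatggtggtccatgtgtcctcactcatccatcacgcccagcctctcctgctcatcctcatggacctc
Cdh22: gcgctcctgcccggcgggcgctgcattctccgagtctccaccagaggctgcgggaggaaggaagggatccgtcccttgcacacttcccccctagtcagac

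These windows lie at chr3:49757317-49757416 (reverse strand) for *Pcdh18*, chrX:133688994-133689093 (reverse) for *Pcdh19*, chr3:45378298-45378397 (forward) for *Pcdh10*, chr14:54641365-54641464 (reverse) for *Cdh24* and chr14:84443463-84443562 (forward) for *Pcdh17*. Those of *Pcdh9*, *Cdh23* and *Cdh22* lie at chr14:93890680-93890779, chr10:60696491-60696590 and chr2:165234738-165234837, all on the reverse strand. CCAAT on either strand was found in 5 of the 6 protocadherins with a promoter and in 2 of the 8 *Cdh* genes, *Cdh18* and *Cdh20*. The RefSeq starts of *Cdh18* and *Cdh12* lie 487441 and 662187 bases inside the GENCODE genes, so their windows are not at the annotated gene start. It was in 22% of windows of the same length over listed genes and in 24% over those with a mean of at least 100. Among listed genes with a mean below 10 it was in 17.7%. By level, among members with a promoter, the motif was in 4 of the 5 with a mean of at least 100 and in 3 of the 8 below 10. In *Pcdh9*, the lowest of the protocadherins with a promoter, it was present as well, so its presence alone did not separate high from low members. A match of 5 letters describes the sequence and is not a binding site.

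The dinucleotide CG was counted in the 250 bases before the start. Among members with a promoter, the 5 with a mean of at least 100 had 23 (*Pcdh18*), 16 (*Pcdh19*), 22 (*Pcdh10*), 22 (*Cdh24*) and 21 (*Pcdh17*). The 8 with a promoter and a mean below 10 ranged from 5 (*Cdh15* and *Cdh23*) to 30 (*Cdh22*). Of these 8, 3 had at least 10, namely *Pcdh9*, *Cdh20* and *Cdh22*. Over all listed genes with a promoter, 77.8% of those with a mean of at least 100 and 31.9% of those below 10 had at least 10. *Cdh22*, with 1 read in 6 libraries, thus had more CG before its start than any other member with a promoter. The RefSeq start of *Cdh22* lies 116 bases inside the GENCODE gene, so part of its window is within that gene.

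**Figure D2:**
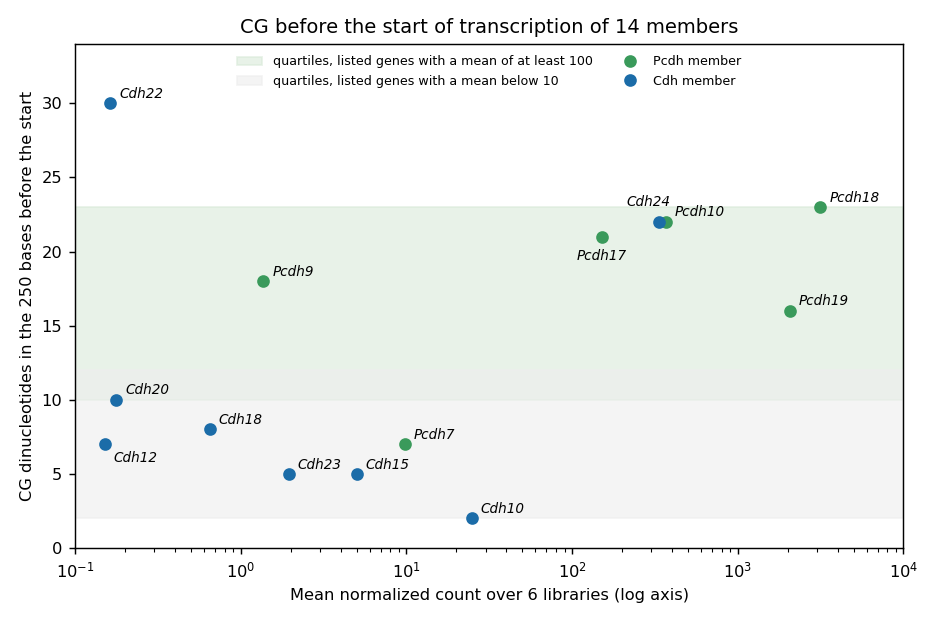
Number of CG dinucleotides in the 250 bases before the start of transcription (vertical axis) against the mean normalized count over 6 libraries (log axis) for the 14 members with a RefSeq promoter, 1 labelled point per gene. Bands give the quartiles over listed genes with a mean of at least 100 (10 to 23) and below 10 (2 to 12), and *Cdh22* at 30 lies above both.

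The clustered protocadherins lie in 3 neighbouring clusters on the forward strand of chromosome 18, in the order *Pcdha*, *Pcdhb* and *Pcdhg*. Each *Pcdha* and *Pcdhg* gene has a large variable exon of its own that is spliced to constant exons common to its cluster, while each *Pcdhb* gene is a single exon. In GENCODE, the median *Pcdhg* member had 55.2% of its exon bases outside exons of other genes, against 100% for the median *Pcdhb* member. How reads on the constant exons were counted in the gene models that the authors used was not analysed here, and the levels of single *Pcdha* and *Pcdhg* members depend on it. Windows of 100 bases found in another member made up 43.7% of the median *Pcdhg* member and 0.242% of the median *Pcdhb* member, with 7.73% the highest value in the latter, for *Pcdhb21*.

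Of the 14 annotated genes of the *Pcdha* cluster, 2 were listed, each with a single read, *Pcdha1* in library D and *Pcdha9* in library B. In both, 46.5% of the exon bases lay outside exons of other genes. The other *Pcdha* genes were not analysed here.

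The *Pcdhb* cluster was expressed at a low level by most of its genes. Of 22 annotated genes 21 were listed, 10 of them with a mean of at least 10, and their median was 9.78. *Pcdhb5* had the highest mean, 299 (286 to 314), and lies on chromosome 18 from 37320381 to 37323915. Its neighbours were far lower, *Pcdhb4* at 11.2 and *Pcdhb6* at 6.18. The second highest was *Pcdhb16*, with 130 (121 to 140), from 37477814 to 37483038. It lies in a run of adjacent genes that were all above most of the cluster. Within this run *Pcdhb14* had 65.0 (58.7 to 71.7), *Pcdhb15* 53.8 (48.1 to 59.96) and *Pcdhb17* 48.7 (43.3 to 54.6). The run from *Pcdhb14* to *Pcdhb17* took 39.3% of the normalized counts of the cluster, and *Pcdhb5* alone took 39.5%. *Pcdhb21*, *Pcdhb7* and *Pcdhb22* stood at 27.5, 27.5 and 24.7, and their intervals overlapped.

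**Figure D3:**
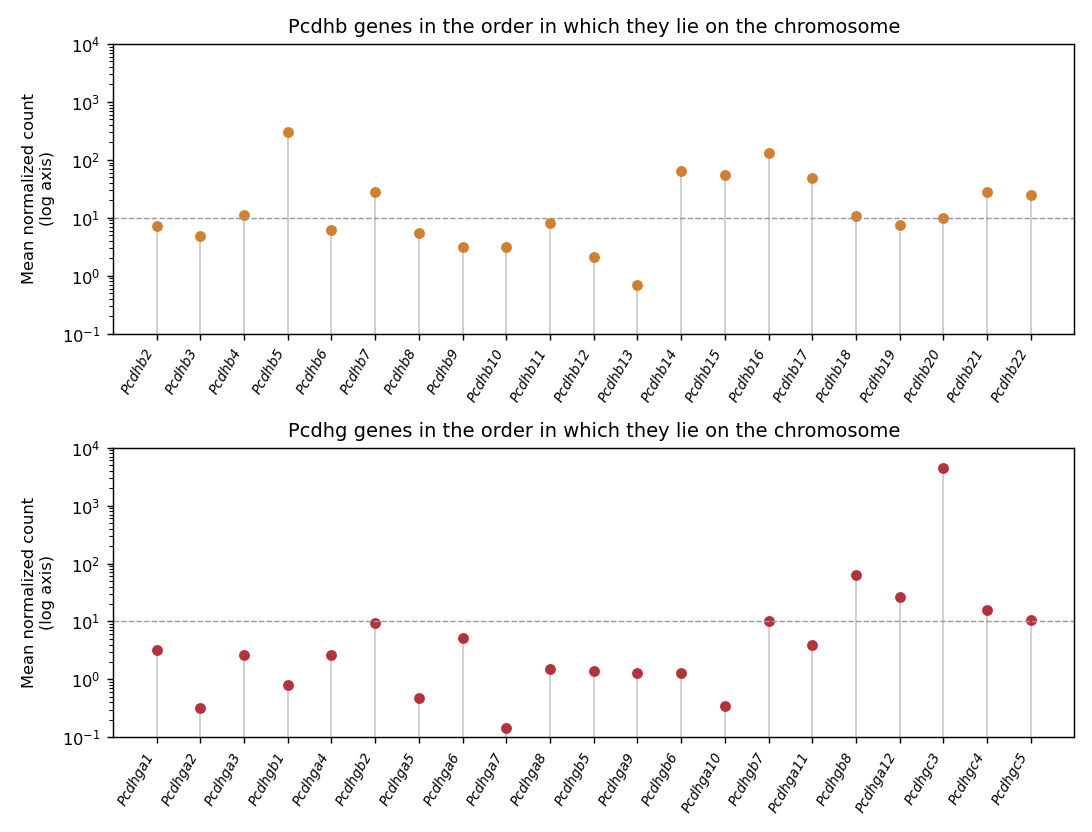
Mean normalized count over 6 libraries (log axis) of the 21 *Pcdhb* genes (upper panel) and the 21 *Pcdhg* genes (lower panel) in the order in which they lie on the chromosome, 1 point per gene, with a dashed line at 10. *Pcdhb5* at 299 and the run around *Pcdhb16* at 130 stand out in the first cluster, and *Pcdhgc3* at 4456 in the second.

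Whole reads could be read off for 11 *Pcdhb* genes. *Pcdhb20* had 18, 18, 3, 15, 2 and 5 reads in libraries A to F, a total of 61. *Pcdhb11* had 20, 12, 1, 17, 1 and 1 reads, *Pcdhb19* had 8, 15, 1, 18, 2 and 2, and *Pcdhb2* had 15, 17, 0, 12, 0 and 2. In each of these 4 genes, libraries A, B and D each held more reads than C, E or F. *Pcdhb6* had 14, 10, 2, 12, 1 and 0 reads, *Pcdhb8* had 10, 14, 1, 9, 0 and 1, and *Pcdhb3* had 11, 12, 0, 8, 0 and 0. *Pcdhb10* had 7, 6, 1, 6, 0 and 0 reads, *Pcdhb9* had 4, 3, 2, 7, 1 and 2, and *Pcdhb12* had 2, 5, 0, 5, 0 and 1. The same 3 libraries were the higher ones in these 6 genes, by a margin of 1 read in *Pcdhb9* and *Pcdhb12*. This grouping of libraries was read off these same reads, and how many of all listed genes show it was not analysed. *Pcdhb13* had 1 read in each of A, D, E and F and none in B or C, and was the lowest of the cluster at 0.688.

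**Figure D4:**
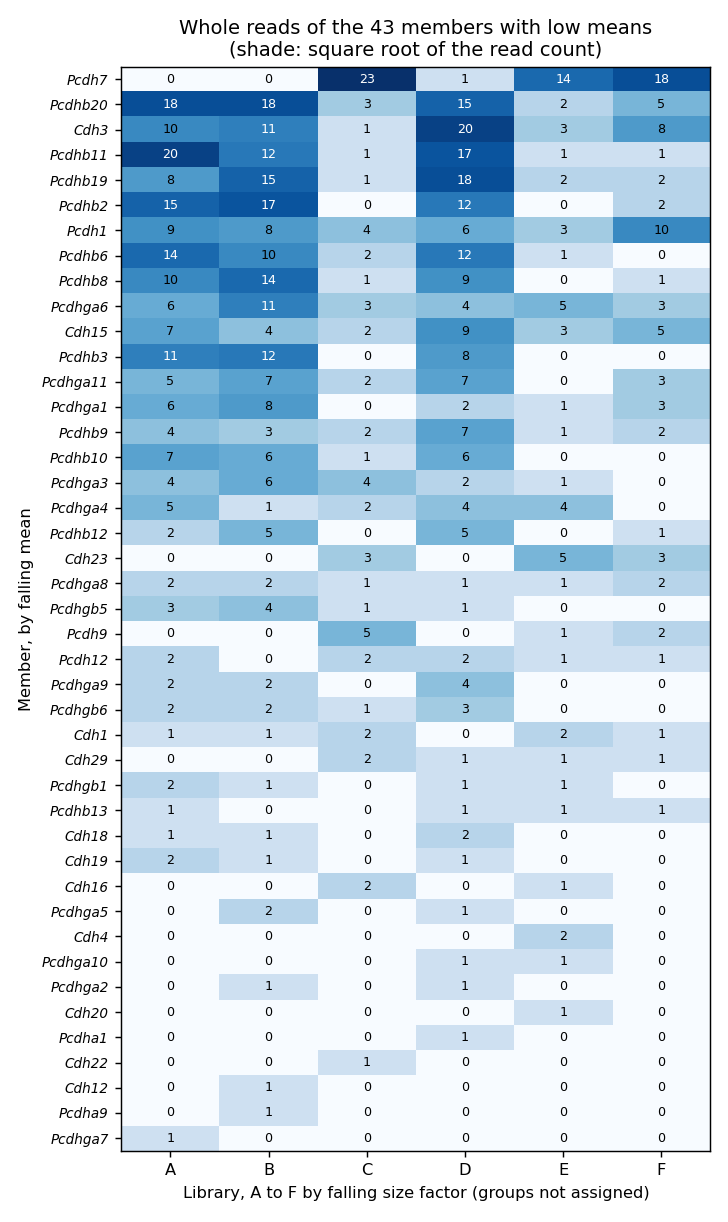
Whole reads (numbers in the cells, shade by square root) of the 43 members whose mean below 10 could be taken apart, in rows by falling mean, in the 6 libraries A to F by falling size factor. Libraries were not assigned to *Ms4a15* OE or control; *Pcdhb20*, with 18, 18, 3, 15, 2 and 5 reads, and *Pcdh7*, with 0, 0, 23, 1, 14 and 18, fill different libraries.

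The *Pcdhg* cluster was dominated by 1 gene. *Pcdhgc3*, a C-type gene near the constant exons, had a mean of 4456 (4403 to 4510), which was 96.5% of the normalized counts of the 21 listed *Pcdhg* genes and 82.9% of those of all clustered members. It lies on chromosome 18 from 37806364 to 37841873, and 61.5% of its exon bases were its own. The adjacent C-type genes *Pcdhgc4* and *Pcdhgc5* had 15.8 (12.8 to 19.3) and 10.4 (7.99 to 13.3), although they share the same constant exons. *Pcdhgb8*, annotated as a polymorphic pseudogene, had 64.2 (58.0 to 70.9), *Pcdhga12* had 26.5 (22.5 to 30.9) and *Pcdhgb7* had 10.4 (7.96 to 13.3). These 3 genes lie nearest to the C-type genes together with *Pcdhga11*, at 3.91. The other *Pcdhg* members were below 10.

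Among these low members, *Pcdhga6* had 6, 11, 3, 4, 5 and 3 reads in libraries A to F and *Pcdhga11* had 5, 7, 2, 7, 0 and 3. *Pcdhga1* had 6, 8, 0, 2, 1 and 3 reads, *Pcdhga3* had 4, 6, 4, 2, 1 and 0, and *Pcdhga4* had 5, 1, 2, 4, 4 and 0. Library A, B or D held the most reads in each of these 5 genes, and the libraries overlapped more than in the *Pcdhb* genes. *Pcdhga8* had 2, 2, 1, 1, 1 and 2 reads and *Pcdhgb5* had 3, 4, 1, 1, 0 and 0. The remaining 7 with whole reads, *Pcdhga9*, *Pcdhgb6*, *Pcdhgb1*, *Pcdhga5*, *Pcdhga10*, *Pcdhga2* and *Pcdhga7*, had between 1 and 8 reads in all. *Pcdhgb2*, at 9.27, was the member for which more than 1 set of reads gave the mean.

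Levels of different genes were compared per kb of coding length, which ran from 2310 bases to 10062 bases in the 69 members with one. On this scale *Cdh2* remained first with 2409 normalized counts per kb, followed by *Pcdhgc3* with 1590, *Pcdh18* with 925 and *Pcdh19* with 599. Per kb of exon shared with no other gene, *Pcdhgc3* came before *Cdh2*. *Cdh2* was above 80.2% and *Pcdh19* above 55.6% of the 14038 genes with a coding length. *Cdh24* (142 per kb), *Pcdhb5* (126) and *Pcdh10* (116) came next. The intervals of *Pcdhb5* (120 to 132 per kb) and *Pcdh10* (112 to 121 per kb) overlapped, and so did those of *Cdh5* (41.9 to 48.9 per kb) and *Pcdh17* (40.6 to 46.3 per kb). *Pcdhb16* stood between these pairs at 54.2 per kb. From *Pcdhb14* (27.2 per kb) downwards, neighbours in the order overlapped except for *Cdh17* with *Cdh11* and *Pcdhga12* with *Pcdhgc4*.

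**Figure D5:**
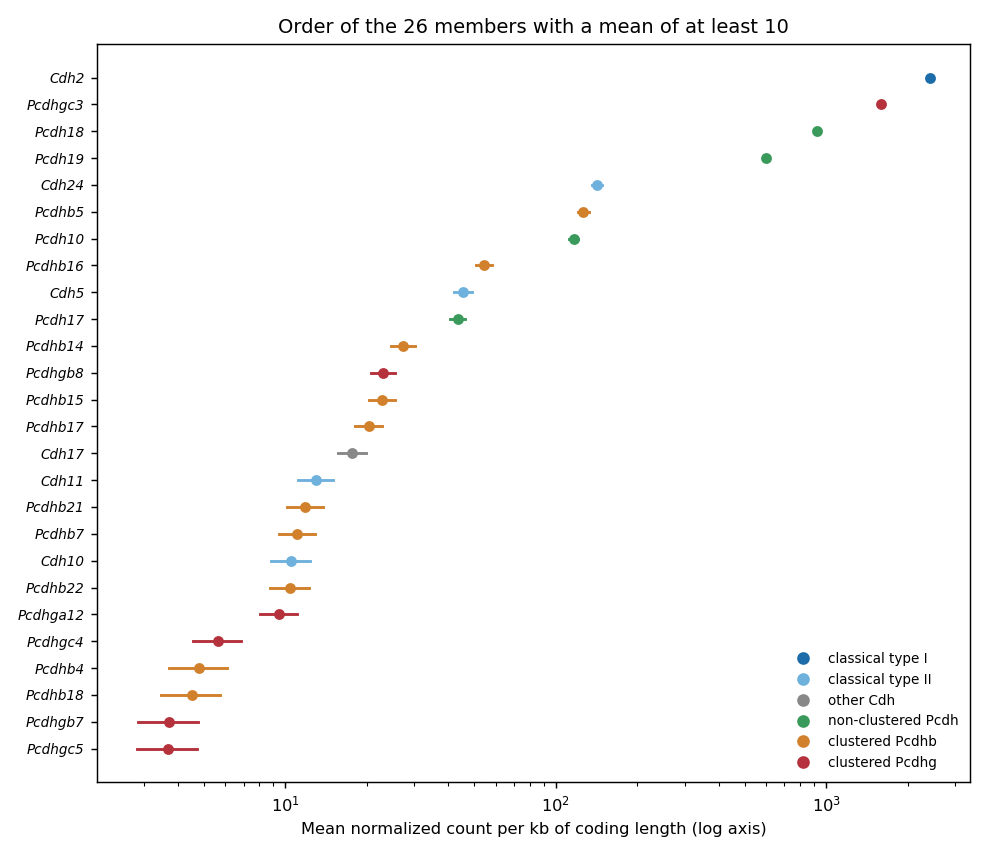
Mean normalized count per kb of coding length (log axis) of the 26 members with a mean of at least 10, 1 point per gene coloured by class, with bars for the 95% interval that covers counting error alone. The 4 highest, from *Cdh2* at 2409 to *Pcdh19* at 599, lie apart from each other and from the rest, and the bars of most lower neighbours overlap.

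Several partner genes of cadherins had high means. Of 16 armadillo and actin-linking partners, 14 were listed, 13 of them with a mean of at least 10, a level reached by 67.7% of all listed genes. *Ctnnb1* (beta-catenin) had a mean of 23384 normalized counts, *Ctnna1* (alpha-catenin) 14219, *Ctnnd1* (p120-catenin) 11890 and *Vcl* (vinculin) 11655. *Jup*, the gene of plakoglobin, had 318 and *Ctnna3*, an alpha-catenin of heart, 1.503. *Pkp3*, *Arvcf* and *Plekha7* had 209, 103 and 29.4. These and *Ctnna3* were below the median listed gene at 237, and the others of the 14 were above it. Per kb of coding length, *Ctnnb1* had 9980, *Ctnna1* 5231 and *Ctnnd1* 4099, each above *Cdh2*. Of the nectins, 3 of 4 had a mean of at least 100, led by *Pvrl3* at 1765. Over all listed genes, 54.7% reached 100. All 7 genes of cadherin cleavage were at least at 100, among them *Adam10*, whose protease cuts N-cadherin, at 12492. All 9 genes of protocadherin promoter choice lay between 6397 and 24130, with *Ctcf* at 7005 and the cohesin subunit gene *Rad21* the highest. Of 27 further genes of the cadherin superfamily 21 were listed, and 8 had a mean of at least 10, beside 67.7% of all listed genes. *Fat1* had 10597 and *Clstn1* (calsyntenin) 10004, while the desmosomal cadherin genes *Dsg2* and *Dsc1* had 2.31 and 3.39.

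The label of the cells was checked with marker lists. Of 14 fibroblast markers 13 were listed and 12 had a mean of at least 10, with *Col1a2* at 135155 and *Vim* at 115130, while *Lum* was at 0.675. Of 13 epithelial markers 12 were listed and 4 had a mean of at least 10. *Epcam* and *Esrp1* had 1 read each by their means of 0.176 and 0.151, whereas *Ocln* had 295, *Krt14* 170 and *Grhl2* 76.0. Of 8 endothelial markers 7 were listed and 2 had a mean of at least 10, namely *Egfl7* at 85.7 and *Pecam1* at 15.9, beside *Cdh5* at 107. The defining endothelial genes *Kdr*, *Tek* and *Tie1* were at 1.36, 1.38 and 0.188. Of 10 neural markers 6 were listed and 3 had a mean of at least 10, namely *Nes* (nestin) at 10480, *Tubb3* (a neuronal tubulin) at 2463 and *Syp* (synaptophysin) at 40.8, while *Stmn2*, *Elavl3* and *Elavl4* were at 3.46, 2.27 and 0.188. Of 8 myeloid markers 7 were listed and 5 had a mean of at least 10, with *Lyz2* the highest at 534. *Cd14* and *Cd68* were at 374 and 164, while *Csf1r*, *Ptprc*, *Itgam* and *Laptm5* were at 13.2, 11.1, 5.79 and 1.14. Over all listed genes, 67.7% had a mean of at least 10. In a bulk sample, a low level in all cells and expression in a few cells cannot be told apart, and the part of other cell types in these levels was not tested.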

How the data were processed

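RNAseq of 3 *Ms4a15* OE and 3 control libraries of mouse fibroblasts was taken from 1 deposited table of 19078 genes. The authors aligned reads with STAR to mm10 and the UCSC knownGene annotation, obtained reads per gene with HTSeq-count and used DESeq2 for the comparison of the groups. The submitters' processing notes name TopHat, Cufflinks, Cuffdiff, HTSeq and DESeq2. The labels describe a stranded library kit. The deposited signal used here is a pooled mean, formed by the authors across the 6 libraries after scaling reads by size factor. An edgeR test was planned only for the case of counts of single libraries, and was therefore not run. The other 5 columns of the deposited table were not used. They hold the authors' own comparison (log2 fold change, its standard error, p-value, adjusted p-value and direction). Totals per library are not known from the deposited table.

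Members were matched by symbol, and 69 of 70 were found in GENCODE M21 (GRCm38, the build of mm10), which gave positions and the longest coding length. Size factors were fitted to 3577 genes with means below 1.4. Means below 10 were split into whole reads of 6 libraries with a tolerance of 1.5e-09, allowing up to 70 reads in each set of 3 libraries. The search was also run on simulated reads, for which no result is given here. Intervals are 95% Poisson intervals, exact where whole reads were found and otherwise from the mean times the sum of the size factors. They cover counting error only. Promoters came from RefSeq (GRCm38.p6), 250 bases before to 50 after the start. That start lies 114, 116, 408, 1382, 487441 and 662187 bases from the GENCODE gene start for *Pcdh7*, *Cdh22*, *Cdh15*, *Cdh10*, *Cdh18* and *Cdh12*.

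The members and lists were chosen with earlier results of these data known. All members may be named, with values in full for the 5 highest of each class, those with a mean of at least 100 and those next to the minimum of 10, and so may any gene of the lists. Whole reads and promoter sequences were examined after the table had been seen. Figures were drawn with matplotlib 3.10.9, and Python 3.11.15 was used with scipy 1.17.1, pandas 2.3.3 and numpy 2.4.6.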

Additional observations from a re-analysis of the deposited data

How the results depend on the processing

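Among the members, 26 reached the minimum mean of 10 normalized counts, and the number was 38 with a minimum of 5, 13 with a minimum of 50 and 10 with a minimum of 100. The changes follow from the threshold itself. Of the 10 highest members per kb of coding length, all 10 were among the 10 highest without division by length and 9 per kb of the longest transcript, where *Pcdhb15* replaced *Pcdh17*. Per kb of exon shared with no other gene, chosen after seeing the data, 9 remained, *Pcdhgb8* replaced *Pcdh17*, and *Pcdhgc3* passed *Cdh2*. Leaving out *Cdh2*, the member with the highest mean, took the share of the classical cadherins from 38.7% to 4.39%, that of the clustered protocadherins from 29.5% to 46.0% and that of the others from 31.8% to 49.6%. The edgeR test of *Ms4a15* OE against control was planned for counts of single libraries and not run, nor were DESeq2, other normalizations, no filter on low counts or leaving out each replicate, since these need library values assigned to groups. No paired analysis was possible because the pooled means carry no replicate numbers. Means near the floor of 1 read in 1 library, between 0.147 and 0.188, limit what can be said of the lowest members.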

Other observations

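In the 11 *Pcdhb* genes with whole reads, all with means below 10, the reads lay mostly in libraries A, B and D. An exception was *Pcdhb13*, with 1 read in each of A, D, E and F and none in B or C. The higher genes of this cluster, among them *Pcdhb5* and *Pcdhb16*, have no values by library. Summed over the 11 genes with whole reads, libraries A to F held 110, 112, 11, 110, 8 and 15 reads, so that A, B and D were each far above C, E and F. After division by size factors, library A held 27.6% of these reads, B 28.9%, C 3.07%, D 33.2%, E 2.43% and F 4.83%. Over all 6137 listed genes with whole reads the shares were 14.6%, 14.4%, 18.6%, 14.5%, 18.8% and 19.0%, with C, E and F the higher ones. The 14 *Pcdhg* genes had 38, 47, 14, 32, 14 and 11 reads. The 4 low non-clustered protocadherins had 11, 8, 34, 9, 19 and 31 reads, of which *Pcdh7* had 0, 0, 23, 1, 14 and 18 and *Pcdh9* 0, 0, 5, 0, 1 and 2, while *Pcdh1* had 9, 8, 4, 6, 3 and 10 and *Pcdh12* 2, 0, 2, 2, 1 and 1. *Cdh* genes outside the classical types had 0, 0, 7, 1, 7 and 4 reads over 3 genes. The type I cadherins had 18, 16, 5, 29, 10 and 14 reads over 4 genes and the type II cadherins 3, 3, 1, 3, 1 and 0 over 5 genes. After division by size factors, the type I shares were 17.2%, 15.7%, 5.31%, 33.2%, 11.5% and 17.1%, so that A and B did not stand apart from F, and 53 of the 92 reads were of *Cdh3*. Which of these libraries are *Ms4a15* OE and which control was not assigned, and no test was made.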
